A study of Mus musculus with 22 samples.

Results

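The myocyte enhancer factor 2 (MEF2) family in the mouse comprises the transcription factor genes Mef2a, Mef2b, Mef2c and Mef2d, which were chosen by gene symbol. They were 4 of the 55385 genes and 55 of the 142552 transcripts quantified, and 4 of 4 passed the filter on low counts, which left 20524 genes for testing. MEF2 proteins bind DNA as dimers through an N-terminal MADS box and an adjoining MEF2 domain. In neurons, calcium signals acting through calcineurin and several kinases release them from class IIa histone deacetylases, and they control genes of neuronal survival, dendrite growth and synapse number. In microglia, MEF2C is known for restraining inflammatory responses, and in people the loss of a copy of MEF2C causes a neurodevelopmental disorder.

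Ribosome-bound polyadenylated RNA was purified from 6 brain cell types of 6-week-old mice, with 3 biological replicates of each, by the RiboTag method. All animals were Rpl22 fl/+, CreTg/+ offspring of B6N.129-Rpl22tm1.1Psam/J females, so that Cre switches on an HA tag on the ribosomal protein RPL22, and tagged ribosomes were pulled down with anti-HA beads. Gabra6-cre was used for granule cells of the cerebellum, Rbp4-cre for layer V neurons of the cortex and also for dentate gyrus granule cells of the hippocampus, Dlx6a-cre for inhibitory interneurons of the hippocampus, Aldh1-cre (as labelled; the line is the inducible Aldh1l1-cre/ERT2) for astrocytes of the cortex, and Tmem119-cre (the inducible Tmem119 cre/ERT2 allele) for microglia of the cortex. Inducible lines were given tamoxifen by gavage from 3 weeks of age, a treatment that the 4 neuronal groups, whose Cre lines are not inducible, did not share. Each interneuron library pooled the tissue of 2 mice, and every library holds the RNA of all cells of the dissected tissue in which the driver was active. For each gene, estimated counts and TPM (a level corrected for transcript length and expressed as parts of a fixed library total) were summed over its transcripts. The 18 libraries compared held 38270477 to 71440915 estimated counts (median 54631726).

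All 3 interneuron and all 3 microglia libraries came from batch 2, and the other 12 libraries compared came from batch 1, so that batch cannot be told apart from these cell types in fits of the 18 libraries. Fits within batch 2 compare all 6 cell types in 1 batch, but with a single library each of dentate granule cells, layer V neurons, cerebellar granule cells and astrocytes, so that their spread comes from the interneuron and microglia libraries. Another run existed for 4 replicates, from dentate granule cells, layer V neurons, cerebellar granule cells and astrocytes, which were sequenced in both batches. Between their runs the TPM of Mef2a, Mef2c and Mef2d differed by -6.17% to 3.83%, and that of the scarce Mef2b by -8.30% to 39.0%. Layer V replicate 1 was labelled female in batch 1 and male in batch 2, while the female transcript Xist was at 2.45 and 2.125 TPM in these libraries. The Y-linked Ddx3y was at 0.086 and 0.034 TPM in them, so the male label went against the data, and this batch 2 library entered only the alternatives. Whether layer V and dentate libraries, both from Rbp4-cre mice, came from the same animals is not given in the sources used here, and they were treated as independent.

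The cell-type labels were checked against lists of marker genes. Of the microglial markers, C1qa was at 7306, 7724 and 7393 TPM in microglia, Cx3cr1 at 1679.5, 1674 and 1601 TPM, P2ry12 at 1592, 1690.0 and 1490.2 TPM and Tmem119, the gene named in the Cre driver, at 1100.5, 1173 and 1118 TPM. In astrocytes, the next highest type for all 4, they had means of 16.1, 5.94, 11.4 and 4.66 TPM, and in cerebellar granule cells Tmem119, P2ry12 and Cx3cr1 were each under 0.1 TPM. The other lists are given as summed TPM per replicate. The 6 astrocyte markers summed to 8104, 7865 and 8192 TPM in astrocytes, with Slc1a2 the most abundant, and the 8 interneuron markers to 11041, 10923 and 12084 TPM in interneurons, with Sst the most abundant. The 3 dentate markers summed to 741, 752 and 667 TPM in dentate granule cells, with C1ql2 the most abundant, and the 4 cerebellar granule markers to 6803, 6757 and 6735 TPM in cerebellar granule cells, with Gabra6 the most abundant. The 4 layer V markers did not single out layer V neurons: they summed to 431, 432 and 449 TPM there, against 487, 569 and 513 TPM in dentate granule cells, where Crym and Bcl11b were high, and 712, 726 and 745 TPM in cerebellar granule cells, almost all of it Etv1. Of these 4, Fezf2, a defining factor of deep-layer projection neurons, was highest in layer V neurons (85.5 TPM, against 20.5 TPM in astrocytes, 14.7 TPM in dentate granule cells and 0 in cerebellar granule cells).

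Some libraries also held markers of other cell types. The 5 pan-neuronal markers, of which Snap25 was the most abundant in every cell type, summed to 3692, 4093 and 4411 TPM in dentate granule cells, 8069.5, 7898 and 8114 TPM in layer V neurons, 12782, 12904 and 12759 TPM in cerebellar granule cells and 6305, 6864 and 6686 TPM in interneurons. In the glial libraries they summed to 938, 1057 and 802 TPM in astrocytes and 387, 434 and 403 TPM in microglia, with 5 of 5 at a mean of at least 1 TPM in both. The 3 excitatory markers summed to 559.5, 482 and 410.0 TPM in astrocytes, 228, 272 and 279.6 TPM in microglia and 518, 495 and 393 TPM in interneurons, with Camk2a the most abundant. The 8 interneuron markers summed to 433, 416 and 377 TPM in layer V neurons, 370.2, 413 and 354 TPM in astrocytes, 213, 282 and 315 TPM in dentate granule cells and 126, 121 and 107 TPM in microglia. The 6 astrocyte markers summed to 211, 209.8 and 264 TPM in microglia, led by Slc1a3. In microglia the 4 endothelial markers summed to 382, 258 and 327 TPM (Ly6c1 the most abundant), the 2 pericyte markers to 75.3, 66.2 and 74.5 TPM (Rgs5), and the 3 markers of border macrophages to 9.17, 8.11 and 6.71 TPM (Mrc1). The 4 oligodendrocyte markers, led by Mbp, summed to 2403, 2561 and 2391 TPM in interneurons, 857, 785 and 677 TPM in astrocytes, 377, 451 and 432 TPM in microglia and 242, 265 and 341 TPM in dentate granule cells. The 2 markers of oligodendrocyte precursors summed to means of 0.268 to 9.27 TPM over the 6 cell types. The source of this RNA and its part in the MEF2 levels of the libraries were not tested, and in bulk RNA of this kind, fewer cells and less RNA per cell cannot be told apart.

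The libraries of every cell type held MEF2 mRNA, with a different mix of the family members in each type. Summed over the family, the level was 605 ± 19.8 TPM in layer V neurons (SD, n = 3, as for the other sums), 536 ± 16.0 in dentate granule cells, 378 ± 27.0 in interneurons, 365 ± 0.687 in cerebellar granule cells, 339 ± 7.06 in microglia and 115 ± 9.59 in astrocytes. Mef2c made up 71.1% of this sum in layer V neurons, 56.2% in interneurons, 50.8% in microglia and 49.2% in astrocytes, as the most abundant member in these 4 types. It made up 32.0% in dentate granule cells and only 4.67% in cerebellar granule cells. Astrocyte libraries had a mean of 56.8 TPM of Mef2c, against 429.7 TPM in layer V neurons. The pan-neuronal markers had mean sums of 932 TPM in astrocytes and 8027 TPM in layer V neurons. How much of the astrocyte Mef2c came with this neuronal RNA was not tested, so the astrocyte mix describes the libraries. In the granule cells of both regions Mef2d was the most abundant member by mean TPM, with 48.2% of the sum in the dentate gyrus and 48.9% in the cerebellum, where Mef2a followed with 46.4%. Mef2b made up 0.822% of the sum in astrocytes and less in the other types. By edgeR's test for any difference among the 6 cell types, 4 of 4 members were called at an adjusted p of 0.05, and so were 97.3% of all genes tested, so this count is not a result about the MEF2 genes.

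**Figure D1:**
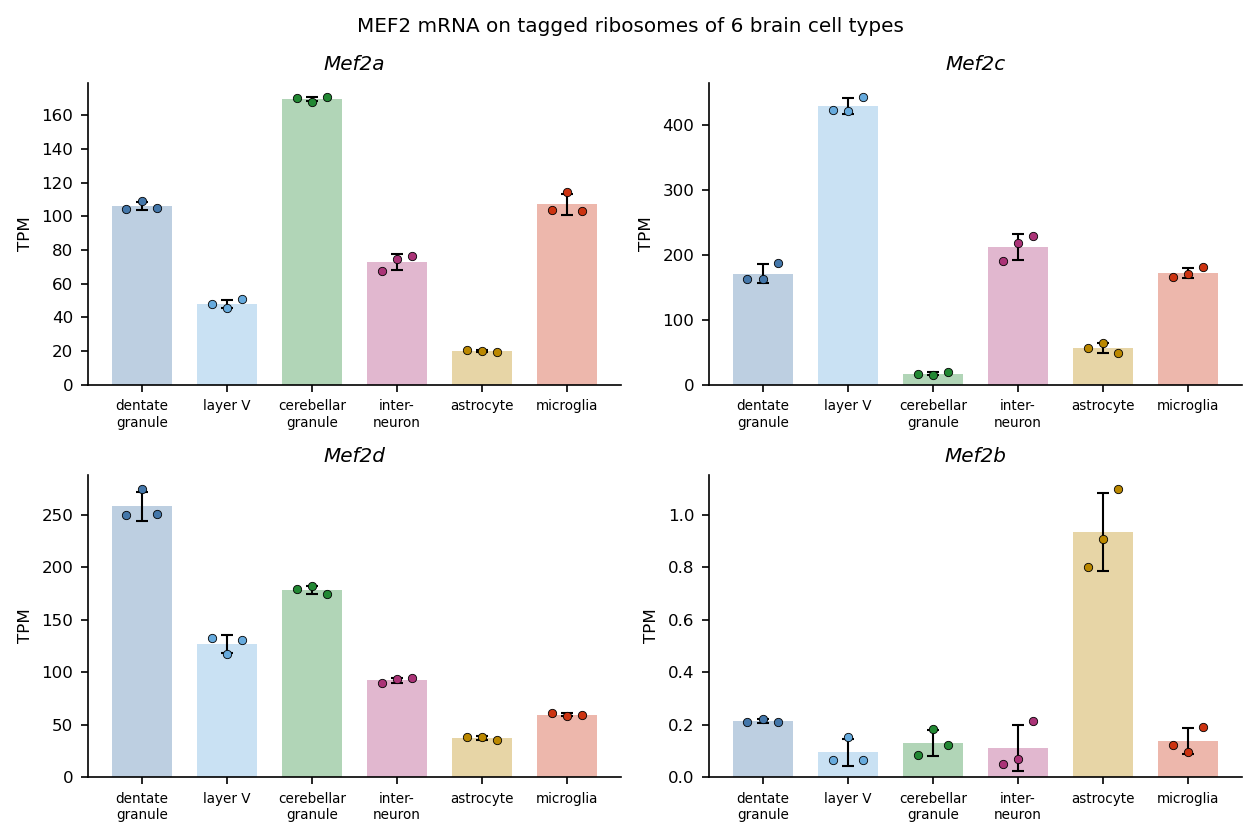
Level of each MEF2 gene in TPM in each of the 18 libraries, by cell type, with points for libraries and bars for the mean and SD (n = 3). Mef2c runs from 17.0 TPM on average in cerebellar granule cells to 429.7 TPM in layer V neurons, while Mef2b reaches 0.935 TPM in astrocytes.

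Mef2a (ENSMUSG00000030557.17, chr7:67231163-67372858, minus strand, GRCm38), a factor known for postsynaptic differentiation of cerebellar granule neurons, was highest in those cells and lowest in astrocytes. In the neuronal libraries, Mef2a was at 170.0, 168 and 171 TPM in cerebellar granule cells, 104.6, 109 and 104.7 TPM in dentate granule cells, 67.3, 74.9 and 76.3 TPM in interneurons and 47.7, 45.7 and 50.7 TPM in layer V neurons. In glia it was at 104, 114 and 103 TPM in microglia and 20.9, 19.9 and 19.6 TPM in astrocytes. Microglia and dentate granule cells overlapped, and no other neighbours in this order did. Mean levels ran from 169 ± 1.35 TPM (SD, n = 3) in cerebellar granule cells, 107 ± 6.09 TPM in microglia, 106 ± 2.45 TPM in dentate granule cells, 72.8 ± 4.83 TPM in interneurons and 48.0 ± 2.52 TPM in layer V neurons to 20.1 ± 0.669 TPM in astrocytes. The level in cerebellar granule cells was 8.42 times that in astrocytes, and the level in microglia 5.32 times. Each step down this order was tested by edgeR as a log2 fold change of normalised counts, beside the share of all genes called between the same pair of cell types. Cerebellar granule cells exceeded microglia by 0.52 (SE 0.05, adjusted p = 3.58e-08), where 85.5% of genes were called. Dentate granule cells exceeded interneurons by 0.61 (SE 0.05, adjusted p = 1.04e-08), where 63.9% were called, and layer V neurons exceeded astrocytes by 1.35 (SE 0.05, adjusted p = 9.65e-14), where 77.2% were called. The remaining steps depended on the scale. Microglia exceeded dentate granule cells by 0.20 (SE 0.05, adjusted p = 0.00168) on counts, where 79.8% of genes were called, but by 0.013 on log2 TPM (adjusted p = 0.827, limma; range of adjusted p over all alternatives 7.8e-06 to 0.829). Interneurons exceeded layer V neurons by 0.21 (SE 0.05, adjusted p = 0.00228) on counts, where 60.7% were called, and by 0.59 on log2 TPM. Within batch 2, with a single layer V library, the value was 0.22 and not called (adjusted p = 0.06; range over all alternatives 9.72e-08 to 0.06).

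Mef2c (ENSMUSG00000005583.16, chr13:83504034-83667080, plus strand), the member tied to human neurodevelopmental disease and to microglial restraint, had the widest range of the abundant members, with layer V neurons at the top and cerebellar granule cells at the bottom. In the neuronal libraries, Mef2c was at 423, 422 and 444 TPM in layer V neurons, 191, 218 and 229 TPM in interneurons, 163, 163 and 188 TPM in dentate granule cells and 16.0, 15.6 and 19.6 TPM in cerebellar granule cells. In glia it was at 166, 170.1 and 181 TPM in microglia and 56.6, 64.9 and 48.9 TPM in astrocytes. Microglia and dentate granule cells overlapped, while the layer V libraries lay above and the cerebellar libraries below all others. Mean levels were 429.7 ± 12.1 TPM (SD, n = 3) in layer V neurons, 213 ± 19.8 TPM in interneurons, 172 ± 7.81 TPM in microglia, 171 ± 14.5 TPM in dentate granule cells, 56.8 ± 7.98 TPM in astrocytes and 17.0 ± 2.21 TPM in cerebellar granule cells. Layer V neurons thus had 25.2 times the level of cerebellar granule cells and 2.49 times that of microglia, and microglia had 3.04 times that of astrocytes. Down this order, the log2 fold change on counts was 1.43 (SE 0.08, adjusted p = 2.09e-11) from layer V neurons to interneurons. It was 0.27 (SE 0.07, adjusted p = 0.00267) from interneurons to microglia, where 80.8% of all genes were called, and 0.18 with protein-coding transcripts only. Microglia and dentate granule cells did not differ beyond their spread in this fit (-0.10 (SE 0.07, adjusted p = 0.214)), but with all 22 libraries and a batch term the difference was -0.20 (adjusted p = 0.0238; range over all alternatives 0.0238 to 0.923). Dentate granule cells exceeded astrocytes by 1.40 (SE 0.08, adjusted p = 7.92e-12), where 74.2% of genes were called, and astrocytes exceeded cerebellar granule cells by 1.90 (SE 0.08, adjusted p = 1.11e-13), where 82.7% were called.

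Mef2d (ENSMUSG00000001419.17, chr3:88142372-88172086, plus strand), known as a survival factor of neurons, was higher in all 4 neuronal types than in either glial type. In the neuronal libraries, Mef2d was at 249.8, 274 and 250.4 TPM in dentate granule cells, 179.6, 182 and 174 TPM in cerebellar granule cells, 133, 117 and 131 TPM in layer V neurons and 89.8, 93.3 and 94.2 TPM in interneurons. In glia it was at 60.9, 57.9 and 59.6 TPM in microglia and 38.7, 37.9 and 35.1 TPM in astrocytes. No neighbours in this order overlapped, so the 12 neuronal libraries all lay above the 6 glial libraries. Means were 258 ± 14.0 TPM (SD, n = 3) in dentate granule cells, 179 ± 3.97 TPM in cerebellar granule cells, 127 ± 8.49 TPM in layer V neurons, 92.4 ± 2.30 TPM in interneurons, 59.5 ± 1.53 TPM in microglia and 37.3 ± 1.89 TPM in astrocytes. The dentate level was 4.34 times that of microglia and 6.93 times that of astrocytes. On counts, the log2 fold change was 0.47 (SE 0.05, adjusted p = 7.81e-08) from dentate to cerebellar granule cells, where 73.9% of genes were called, and 0.29 within batch 2, from a single library of each. From cerebellar granule cells to layer V neurons it was 0.22 (SE 0.05, adjusted p = 0.000487), where 76.1% were called, and 0.49 on log2 TPM. From layer V neurons to interneurons it was 0.86 (SE 0.05, adjusted p = 5.39e-11), and 0.45 on log2 TPM. The smallest step, from interneurons to microglia, was 0.18 (SE 0.05, adjusted p = 0.0024). This step was 0.63 on log2 TPM and 0.29 with no filter on low counts. It was 0.27 without interneuron replicate 2 and 0.28 without interneuron replicate 3. With protein-coding transcripts only it was 0.090 and no longer called (adjusted p = 0.068; range over all alternatives 1.48e-08 to 0.068). From microglia to astrocytes it was 0.68 (SE 0.05, adjusted p = 4.38e-10), where 76.1% of genes were called.

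Mef2b (ENSMUSG00000079033.10, chr8:70139711-70167488, plus strand), best known from germinal-centre B cells, was near the limit of detection outside astrocytes. In astrocytes it was at 0.802, 0.907 and 1.10 TPM. In the other types, Mef2b was at 0.211, 0.221 and 0.210 TPM in dentate granule cells, 0.124, 0.0948 and 0.192 TPM in microglia, 0.0838, 0.184 and 0.123 TPM in cerebellar granule cells, 0.0501, 0.0711 and 0.213 TPM in interneurons and 0.0639, 0.154 and 0.0649 TPM in layer V neurons. Each astrocyte library lay above each of the 15 others, whereas microglia overlapped with cerebellar granule cells, cerebellar granule cells with interneurons, and interneurons with layer V neurons. These levels rested on 45.0 to 76.0 estimated counts per library in astrocytes and 2 to 13 elsewhere. Astrocytes exceeded dentate granule cells by a log2 fold change of 2.50 (SE 0.38, adjusted p = 1.18e-05), and 1.97 within batch 2, from a single library of each (adjusted p = 0.0513; range over all alternatives 7.25e-07 to 0.0513). The remaining neighbours, down to layer V neurons, had log2 fold changes of 0.34, 0.35, 0.45 and -0.23 (adjusted p = 0.509, 0.506, 0.47 and 0.736). The gene shares its start region with Borcs8 on the same strand (chr8:70139499-70147319), and the Borcs8-overlapping transcript Mef2b-205 held 0, 0 and 35.3% of Mef2b TPM in astrocytes. Mef2b-204 held 63.3, 11.9 and 64.7% and Mef2b-203 36.7, 88.1 and 0.0000313% there, a split that rests on few counts. In dentate granule cells, layer V neurons and microglia, Mef2b-203 held 100.0% in every library. Mef2b-201 held 0, 100.0 and 0% in cerebellar granule cells and 0, 100.0 and 100.0% in interneurons, with Mef2b-203 as the rest.

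Microglia differed from neurons as a class in the balance of the family rather than in its presence, with less Mef2d and a slight excess of Mef2a and Mef2c over the mean of the neuronal types. Each comparison with neurons used the mean of the log2 levels of the 4 neuronal types. Mef2d was lower in each of the 3 microglia libraries than in each of the 12 neuronal libraries, with a log2 fold change of -1.05 (SE 0.04, adjusted p = 3.53e-14). Mef2a was higher by 0.38 (SE 0.04, adjusted p = 8.05e-08), although its microglial values lay inside the neuronal range of 45.7 to 171 TPM and below all 3 cerebellar libraries. Mef2c was higher by 0.28 (SE 0.06, adjusted p = 0.000213), a mean that rested on the low cerebellar level, since each microglia library lay below each layer V and interneuron library. For Mef2b the value was 0.34 (SE 0.37, adjusted p = 0.398), not past the threshold. In this comparison 3 of 4 members were called, against 82.3% of all genes, so their count was near the background and is not a result about MEF2. Within batch 2, which held all 6 cell types, the log2 fold changes were 0.32 for Mef2a, 0.18 for Mef2c and -1.11 for Mef2d. On log2(TPM + 0.1), the value of Mef2c was 0.43. Going from counts to TPM moved the median of 15250 genes by -0.18 in this contrast, -0.26 in astrocytes against neurons, -0.24 for layer V neurons and 0.16 for interneurons, and by less than 0.1 in the others.

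Astrocytes had the lowest levels of Mef2a and Mef2d of the 6 cell types and the highest of Mef2b. Against the 4 neuronal types, their log2 fold change was -1.99 (SE 0.05, adjusted p = 4.77e-17) for Mef2a and -1.73 (SE 0.04, adjusted p = 8.02e-17) for Mef2d, and each of the 3 astrocyte libraries lay below each of the 12 neuronal ones for both genes. Mef2c was lower by -1.02 (SE 0.06, adjusted p = 4.9e-11), with astrocyte libraries above the cerebellar and below the other neuronal libraries. Mef2b was higher by 3.18 (SE 0.26, adjusted p = 3.39e-09), in 3 of 3 libraries. In this comparison 4 of 4 members and 77.1% of all genes were called. Within batch 1 the values were -2.08 for Mef2a, -0.78 for Mef2c, -1.96 for Mef2d and 3.08 for Mef2b, and within batch 2 they were -2.06, -0.94, -1.87 and 2.75. Set directly against astrocytes, microglia were higher in Mef2a by 2.37 (SE 0.05, adjusted p = 5.89e-17), in Mef2c by 1.30 (SE 0.08, adjusted p = 2.37e-11) and in Mef2d by 0.68 (SE 0.05, adjusted p = 4.38e-10), and they were lower in Mef2b, at -2.84 (SE 0.38, adjusted p = 2.44e-06). The 3 microglia and 3 astrocyte libraries did not overlap for any member. This comparison called 76.1% of all genes, and the share of all genes without overlap was not counted, so this is a description and not a result about MEF2. Within batch 2 these differences were 2.38 for Mef2a, 1.12 for Mef2c, 0.76 for Mef2d and -2.55 for Mef2b, with a single astrocyte library.

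The MEF2 genes are spliced into alternative forms, and microglia held a different mix of them from neurons. Kallisto shares reads among annotated transcripts whose exons are linked in fixed combinations, so the shares below describe annotated transcripts, not single exons read directly. The main Mef2a transcript was Mef2a-208 (ENSMUST00000156690.7), with 95.3% of the gene's TPM in layer V neurons, 87.6% in interneurons, 85.9% in cerebellar and 83.9% in dentate granule cells, 75.8% in astrocytes and 68.7% in microglia. Mef2a-203 (ENSMUST00000076325.11) held 4.00% in layer V neurons and 11.3% to 18.2% in the other types. Mef2a-204 (ENSMUST00000107476.7) was most used in microglia, where it held 14.4, 12.8 and 17.7%, against 1.62, 2.15 and 2.12% in astrocytes. It was listed at 0 in all 12 neuronal libraries. A count of 0 allows at most 0.0140% to 0.0449% of a neuronal library's Mef2a counts (3 counts; counting error only). This limit does not cover the sharing of reads among transcripts, from which the 0 was estimated. This transcript fell outside the shares tested, so its difference is a description. For Mef2c, Mef2c-212 (ENSMUST00000197146.4) held 62.3% to 65.9% in the 4 neuronal types, 57.2% in astrocytes and 39.4% ± 4.03 in microglia, while Mef2c-201 (ENSMUST00000005722.13) held 11.7% ± 1.85 in microglia, 7.67% in layer V neurons, 5.42% in interneurons, 5.17% in astrocytes (3.89, 8.58 and 3.03%), 2.17% in dentate and 0.225% in cerebellar granule cells. For Mef2d, Mef2d-203 (ENSMUST00000107559.2) held 18.7% to 28.6% in the neuronal types, 19.1% in astrocytes and 8.78% ± 1.12 in microglia. The main Mef2d transcript, Mef2d-201 (ENSMUST00000001455.12), held 52.3% to 63.2% in neurons and 69.0% ± 1.88 in microglia (SD, n = 3), and Mef2d-204 (ENSMUST00000119251.7) held 15.01% to 19.8% over the 6 types.

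By limma on the log2 odds of a transcript's share of its gene's counts, 7 transcripts of Mef2a, Mef2c and Mef2d could be tested, and in microglia against the 4 neuronal types 7 of 7 were called, where 53.6% of all 20723 transcripts tested were. Shares within a gene depend on each other, since a rise in 1 lowers the rest. The 7 are thus not separate observations, and counts of called shares, here and below, are descriptions. The share of Mef2a-208 was lower in microglia by -2.40 (SE 0.12, adjusted p = 1.71e-09) and that of Mef2a-203 higher by 0.65 (SE 0.13, adjusted p = 0.000839), a mean that rested on the low layer V share, since its microglial shares overlapped with those of dentate and cerebellar granule cells. Mef2c-212 was lower by -1.55 (SE 0.11, adjusted p = 6.26e-08) and Mef2c-201 higher by 3.42 (SE 0.78, adjusted p = 0.00205), or by 2.14 on the odds of TPM. The size of this last difference is against a mean that includes the near absence of Mef2c-201 in cerebellar granule cells (0.225%, 0 to 16.1 counts). Its mean share of 11.7% in microglia lay much nearer to the 7.67% of layer V neurons. Mef2d-203 was lower by -1.72 (SE 0.10, adjusted p = 6.94e-09), Mef2d-204 was lower by -0.43 (SE 0.08, adjusted p = 0.000313) and Mef2d-201 was higher by 0.88 (SE 0.08, adjusted p = 4.68e-07). For Mef2a-208, Mef2c-212 and Mef2d-203, each microglia library lay below each of the 12 neuronal libraries in its share of TPM. In astrocytes some of these shares were also shifted. Against the 4 neuronal types, 4 of 7 transcripts were called there, where 39.3% of all transcripts were: Mef2a-208 was lower by -1.50 (SE 0.12, adjusted p = 3.87e-07), Mef2a-203 higher by 1.06 (SE 0.13, adjusted p = 1.99e-05), and Mef2d-203 lower by -0.43 (SE 0.10, adjusted p = 0.00412), with astrocyte shares that overlapped with those of layer V neurons. Mef2c-212 was lower by -0.37 (SE 0.11, adjusted p = 0.0181), but by -0.25 without astrocyte replicate 2, which ended the call (adjusted p = 0.146; range over all alternatives 0.0111 to 0.146). Within batch 2, with a single astrocyte library, the value for Mef2c-212 was -0.62. Mef2c-201, at 1.68 (SE 0.78, adjusted p = 0.107), was not called, but it was without cerebellar replicate 3, at 2.10 (adjusted p = 0.000114; range over all alternatives 4.09e-05 to 0.355). On the odds of TPM it was also called, at a smaller value of 0.77 (adjusted p = 0.0487). Between microglia and astrocytes themselves, 5 of 7 were called, where 33.4% of all transcripts were. In microglia, Mef2a-208 was lower by -0.90 (SE 0.16, adjusted p = 0.000607), or -0.50 on the odds of TPM. Mef2c-212 was lower by -1.18 (SE 0.14, adjusted p = 3.03e-05) and Mef2d-203 by -1.29 (SE 0.13, adjusted p = 4.86e-06), Mef2d-204 was lower by -0.57 (SE 0.10, adjusted p = 0.000557), and Mef2d-201 was higher by 0.79 (SE 0.10, adjusted p = 3.76e-05). The uncalled pair passed the threshold in some alternatives: Mef2c-201, at 1.74 (SE 0.99, adjusted p = 0.201), had 1.74 without cerebellar replicate 3 (adjusted p = 0.00321; range over all alternatives 0.00186 to 0.402), and Mef2a-203, at -0.41 (SE 0.17, adjusted p = 0.0746), had -0.54 without astrocyte replicate 3 (adjusted p = 0.0367; range over all alternatives 0.0367 to 0.318).

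Mef2a-208, Mef2c-212 and Mef2d-203, of which microglia held a smaller share than neurons, each include a coding exon of under 30 bases in the transactivation region, and the other tested transcripts do not. A smaller share in microglia did not follow this exon alone, since Mef2d-204, which lacks it, was also lower there, as given above. Of the annotated transcripts that span it with the same neighbouring splice sites, 3 of Mef2a include it and 5 do not, 8 of Mef2c include it and 8 do not, and 1 of Mef2d includes it and 3 do not. These transcripts also differ from the other tested transcripts of the gene in further exons or exon ends, so their shares do not measure this exon alone. The sequences are shown because the tested transcript with the exon held a smaller share in microglia than in neurons in 3 genes: capitals mark the exon, and lower case marks 9 bases of the coding exons on either side, from 5′ to 3′ on the gene's strand in GRCm38. The exon of Mef2a spans chr7:67244521-67244544 on the minus strand, that of Mef2c chr13:83654598-83654621 on the plus strand and that of Mef2d chr3:88161781-88161801 on the plus strand. The exons of Mef2a and Mef2c are identical at 17 of 24 bases.
Mef2a short exon of 24 bases: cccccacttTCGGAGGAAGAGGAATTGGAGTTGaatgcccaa
Mef2c short exon of 24 bases: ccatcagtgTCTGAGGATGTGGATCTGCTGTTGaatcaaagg
Mef2d short exon of 21 bases: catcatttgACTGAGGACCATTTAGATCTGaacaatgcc

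Inclusion was taken as the percent of the TPM of those transcripts that carry the exon, a measure defined after the values were seen and given without a test. For Mef2a and Mef2d it nearly repeats the shares of Mef2a-208 and Mef2d-203, and the exon was chosen because these transcripts and Mef2c-212 were lower in microglia, so inclusion is not a separate observation. For Mef2a, inclusion was 84.9, 84.1 and 84.1% in dentate granule cells, 96.1, 95.6 and 95.4% in layer V neurons, 86.6, 85.9 and 85.7% in cerebellar granule cells and 86.5, 88.3 and 89.3% in interneurons. It was 74.1, 80.7 and 73.2% in astrocytes and 68.9, 71.3 and 66.6% in microglia, so that layer V neurons were highest and microglia lowest, with no overlap with any other type. For Mef2c, inclusion was 93.5, 93.7 and 93.4% in dentate granule cells, 86.3, 86.9 and 87.5% in layer V neurons, 99.5, 95.2 and 97.9% in cerebellar granule cells and 92.7, 92.7 and 91.4% in interneurons. It was 89.6, 85.2 and 90.6% in astrocytes and 65.5, 67.3 and 64.4% in microglia, the lowest of the 6 types in all 3 libraries, while layer V neurons and astrocytes overlapped. For Mef2d, where the form without the exon prevailed everywhere, inclusion was 28.7, 26.3 and 26.5% in dentate granule cells, 19.5, 18.2 and 18.6% in layer V neurons, 29.9, 28.2 and 28.3% in cerebellar granule cells and 25.4, 27.1 and 26.4% in interneurons. It was 17.8, 19.9 and 20.98% in astrocytes and 10.4, 7.93 and 9.80% in microglia, again below every library of the other types. Mean inclusion in microglia was 68.9% ± 2.34 for Mef2a, 65.8% ± 1.49 for Mef2c and 9.37% ± 1.29 for Mef2d, against 76.0% ± 4.09, 88.5% ± 2.84 and 19.6% ± 1.59 in astrocytes (SD, n = 3). Layer V neurons, with the highest inclusion in Mef2a, were the lowest of the neuronal types in Mef2c and in Mef2d.

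**Figure D2:**
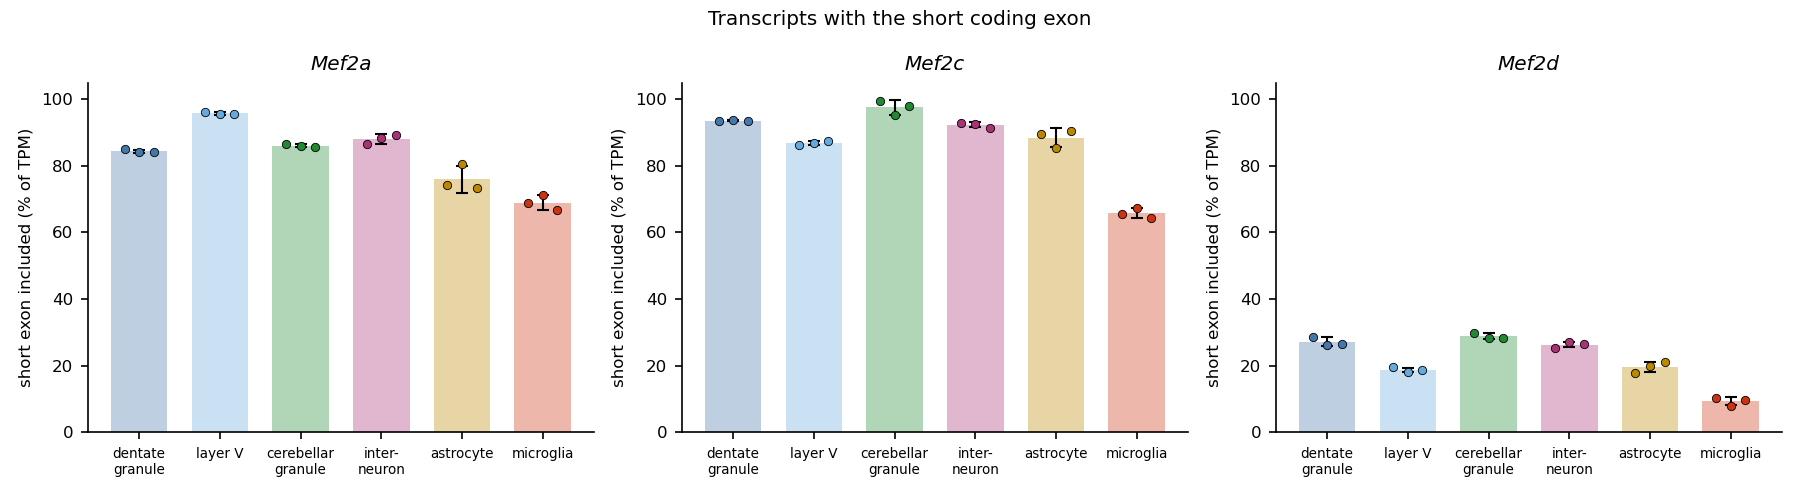
Percent of TPM from transcripts that include the short exon of Mef2a, Mef2c and Mef2d in each of the 18 libraries, by cell type, with points for libraries and bars for the mean and SD (n = 3). In each gene the microglia libraries lie below those of the 5 other types, at means of 68.9%, 65.8% and 9.37%.

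Grouped by first exon, Mef2c transcripts were shared out differently in microglia. The start whose first exon ends at chr13:83573774 made up 39.7, 43.5 and 35.4% of Mef2c TPM in microglia and 60.4, 55.7 and 55.8% in astrocytes, against means of 62.3% to 65.9% in the 4 neuronal types. Nearly all of it is Mef2c-212, so this restates the share of that transcript given above. The most upstream start, ending at 83504376, made up 15.2, 14.9 and 14.5% in microglia, 10.8, 10.1 and 9.92% in layer V neurons and means of 1.62% to 8.22% in the other types. The start ending at 83530176, read from the fragment Mef2c-216 of 556 bases, made up 9.18, 5.42 and 15.8% in microglia, 0, 0 and 3.96% in astrocytes and at most 0.612% in any neuronal library. The start ending at 83525080 differed less, with means of 20.9% to 29.2% over the 6 types. It includes another fragment, Mef2c-217 of 689 bases, which held means of 15.9% to 20.5% of Mef2c TPM. These rested on 18.3 to 995 counts per library, against 1139 to 51866 for Mef2c-212 of 6088 bases. Since TPM corrects for length, a short transcript holds more TPM per count, so this percent need not give the use of this start.

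Genes that act with, on or under MEF2 were read from gene lists, in microglia against neurons, beside 45.1% of all genes higher, 37.2% lower and a median log2 fold change of 0.15. With 82.3% of all genes called in this contrast, the counts of called genes in the lists are descriptions and not results about these lists. Srf, the MADS-box relative of MEF2, was at 30.0 ± 0.941 TPM in microglia and had a log2 fold change of -0.09 (SE 0.04), not past the threshold. Of the 4 class IIa histone deacetylases, which repress through MEF2, 1 was higher and 3 were lower in microglia (median -0.84): Hdac7 was at 2.17 (SE 0.08), Hdac9 at -1.47 (SE 0.08) and Hdac4 at -1.43 (SE 0.07). Hdac5, the most abundant of them, was at 78.7 ± 4.38 TPM in microglia, with a log2 fold change of -0.24 (SE 0.05). Of the 7 coactivators and other partners, 4 were higher, 1 was lower and 2 were not past the threshold (median 0.17), with the acetyltransferase Kat2b at 0.67 (SE 0.06), the calcineurin-binding repressor Cabin1 at 0.65 (SE 0.04) and the arginine methyltransferase Carm1 at -0.32 (SE 0.04). Of the 13 calcium and kinase inputs, 5 were higher and 8 lower (median -1.01). The kinases Camk1 and Sik1 were higher in microglia, at 3.13 (SE 0.05) and 1.27 (SE 0.22) against the neuronal mean, and Camk1 reached 506 ± 31.2 TPM there. Subunits of calcineurin were lower, with Ppp3ca at -2.60 (SE 0.05), Ppp3cb at -2.99 (SE 0.07) and Ppp3r1 at -2.63 (SE 0.07), and so was the kinase Camk4 at -3.80 (SE 0.10). Of the 12 known MEF2 targets in neurons, 3 were higher and 9 lower (median -1.80). The transcription factors Klf6 and Nr4a1 were higher, at 1.23 (SE 0.07) and 1.09 (SE 0.19), while the secreted synaptic protein Lgi1, at -3.47 (SE 0.05), and the neurotrophin Bdnf, at -2.67 (SE 0.08), were lower. These values are against the mean of the neuronal types: for Sik1, Nr4a1, Bdnf, Kat2b, Cabin1, Carm1, Hdac5 and Hdac9, at least 1 of the microglia libraries fell inside the range of the neuronal libraries, with Sik1 at 7.06 TPM below interneurons (15.3 TPM) and Nr4a1 at 32.3 TPM below layer V neurons (40.6 TPM). Of the 8 transcription factors of microglia, 8 were higher (median 8.31), led by Spi1 at 12.29 (SE 0.10) and Irf8 at 9.47 (SE 0.11), and Spi1, at 426 ± 20.2 TPM, exceeded Mef2c in microglia. These 8 genes were listed because they mark microglia, so their direction was fixed by the choice, and the markers of neurons in the microglia libraries given above bear on the neuronal genes, a part that was not tested.

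Among neurons, dentate granule cells stood out by Mef2d. Against the mean of the other 3 neuronal types, its log2 fold change was 0.90 (SE 0.04, adjusted p = 3.88e-13), and 3 of 3 dentate libraries lay above the 9 other neuronal libraries. Mef2c was higher by 0.51 (SE 0.06, adjusted p = 5.49e-07) against a mean that includes the low cerebellar level, while its dentate values lay below all layer V and interneuron libraries. Mef2a was higher by 0.23 (SE 0.04, adjusted p = 9.25e-05), with dentate libraries between those of the cerebellum and those of interneurons, and Mef2b had 0.90 (SE 0.40, adjusted p = 0.0551), not past the threshold in this fit. In this comparison 3 of 4 members were called, against 64.2% of all genes. Within batch 1, which lacked interneurons, the log2 fold changes were 0.53 for Mef2d, 0.80 for Mef2c and -0.0029 for Mef2a (adjusted p = 0.956). Within batch 2, with a single dentate library, they were 0.78, 0.51 and 0.15 (adjusted p = 0.153 for Mef2a; range over all alternatives 5.91e-06 to 0.956). Mef2b passed the threshold in several alternatives, among them those without layer V replicate 2 (1.08, adjusted p = 0.0261) and without interneuron replicate 3 (1.11, adjusted p = 0.0181; range over all alternatives 0.0149 to 0.241). Of the shares of MEF2 transcripts, 2 of 7 were called in dentate granule cells, where 29.7% of all transcripts were, with Mef2a-208 lower by -0.86 (SE 0.13, adjusted p = 0.000226) and Mef2a-203 higher by 0.84 (SE 0.14, adjusted p = 0.000409), where the latter overlapped with cerebellar granule cells. Both means include the outlying layer V neurons, with 95.3% Mef2a-208. Its share of 83.9% in dentate granule cells was nearer to those of cerebellar granule cells (85.9%) and interneurons (87.6%). Mef2c-201, at 0.46 (SE 0.80, adjusted p = 0.716), was not called, but it was without cerebellar replicate 3, at 1.02 (adjusted p = 0.0276; range over all alternatives 0.0163 to 0.906). On the odds of TPM it turned to -0.61, not called, and a positive value rested on the cerebellar share, since the dentate shares lay below those of layer V neurons and interneurons.

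For the genes around MEF2, dentate granule cells were set against 36.5% of all genes higher, 27.6% lower and a median of 0.10. Of the 13 calcium and kinase inputs, 8 were higher, 4 lower and 1 not past the threshold (median 0.65), with the kinases Camk2a at 5.14 (SE 0.09) and Prkd1 at 4.46 (SE 0.13), and with Camk1 at -2.14 (SE 0.06) and Camk4 at -2.04 (SE 0.09) in the other direction. The means for Camk2a and Prkd1 include their near absence in cerebellar granule cells (0.940 and 0.0670 TPM). Camk2a was at 3015 TPM in dentate granule cells, against 1422 TPM in layer V neurons. Srf was higher by 1.23 (SE 0.04). Of the class IIa histone deacetylases 1 was higher and 3 lower (median -0.37), with Hdac7 at 1.12 (SE 0.09) and Hdac5 at -0.61 (SE 0.06), and of the coactivators and partners 6 were higher and 1 lower (median 0.45), with Kat2b at -1.61 (SE 0.08). Of the 12 targets, 5 were higher and 7 lower (median -0.38): the potassium channel gene Kcna4 was at 3.24 (SE 0.08) and Bdnf at 2.31 (SE 0.06), but Klf6 at -1.32 (SE 0.09) and Nr4a1 at -1.05 (SE 0.23). For Camk4, Kat2b and Nr4a1, at least 1 of the dentate libraries fell inside the range of the other neuronal types, so these values hold against their mean only.

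Layer V neurons had the highest Mef2c of all cell types and the lowest Mef2a of the neuronal ones. Against the other 3 neuronal types, its log2 fold change was 2.65 (SE 0.06, adjusted p = 6.58e-17), with 3 of 3 libraries above the 9 others. Mef2a was lower by -0.85 (SE 0.04, adjusted p = 1.25e-11), again with no overlap. Mef2d had -0.02 (SE 0.04, adjusted p = 0.733) on counts, but on log2(TPM + 1) it was lower by -0.35 (adjusted p = 2.15e-06) and within batch 1 by -0.46 (adjusted p = 9.82e-07; range over all alternatives 9.82e-07 to 0.995). For Mef2b the value was -0.29 (SE 0.43, adjusted p = 0.587). In this comparison 2 of 4 members were called, against 67.6% of all genes. Within batch 1 the value was 3.25 for Mef2c and -1.18 for Mef2a, and within batch 2 it was 2.59 and -0.89, with 0.023 for Mef2d. Transcript shares differed too, with 6 of 7 called, where 36.9% of all transcripts were. Mef2a-208 was higher by 1.73 (SE 0.13, adjusted p = 2.47e-07) and Mef2a-203 lower by -1.84 (SE 0.14, adjusted p = 2.26e-07). Mef2c-201 was higher by 3.06 (SE 0.80, adjusted p = 0.00854), or by 1.96 on the odds of TPM. The size of this difference is against a mean that includes its near absence in cerebellar granule cells (0.225%, 0 to 16.1 counts). The mean share of Mef2c-201 was 7.67% in layer V neurons and 5.42% in interneurons. Mef2d-201 was higher by 0.50 (SE 0.08, adjusted p = 0.000271) and Mef2d-203 lower by -0.74 (SE 0.11, adjusted p = 8.89e-05). Mef2d-204, at -0.22 (SE 0.08, adjusted p = 0.048), kept its call in 3 of 18 fits that each left out a replicate, with values between -0.25 and -0.19, and had -0.071 on the odds of TPM.

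For the genes around MEF2, layer V neurons were set beside 35.9% of all genes higher, 31.7% lower and a median of 0.04. Of the 12 targets 8 were higher, 3 lower and 1 not past the threshold (median 1.43), with the cell adhesion gene Pcdh10 at 2.39 (SE 0.08) and Nr4a1 at 2.36 (SE 0.19), against Jun at -0.93 (SE 0.08) and Ube3a at -0.29 (SE 0.06). Of the calcium and kinase inputs 7 were higher, 4 lower and 2 not past the threshold (median 0.25), with Camk2a at 4.01 (SE 0.09) against a mean that includes its near absence in cerebellar granule cells, while its level of 1422 TPM was below that of dentate granule cells (3015 TPM). Of the coactivators and partners 1 was higher and 5 were lower (median -0.31), with Kat2b at -2.54 (SE 0.08) and Ep300 at -1.23 (SE 0.07), both acetyltransferases, and of the class IIa histone deacetylases 1 was higher and 2 lower (median -0.04), with Hdac9 at 0.93 (SE 0.07) and Hdac7 at -0.75 (SE 0.10). Srf was at 0.31 (SE 0.04). For Hdac9, Hdac7, Pcdh10, Jun, Ube3a and Srf too, at least 1 of the layer V libraries fell inside the range of the other neuronal types, with Hdac9 higher in interneurons (31.3 TPM, against 22.7 TPM).

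Cerebellar granule cells had the highest Mef2a and the lowest Mef2c of all 6 cell types. Against the other 3 neuronal types, Mef2c was lower by -3.90 (SE 0.08, adjusted p = 8.37e-18) and Mef2a higher by 1.20 (SE 0.04, adjusted p = 8.2e-15), each with 3 of 3 libraries apart from the 9 others. Mef2d was higher by 0.27 (SE 0.04, adjusted p = 3.87e-06), with cerebellar libraries below the dentate and above the layer V and interneuron libraries. For Mef2b the value was -0.01 (SE 0.52, adjusted p = 1). In this comparison 3 of 4 members were called, against 77.9% of all genes. Within batch 1, where interneurons were absent, Mef2d reversed to -0.072 (adjusted p = 0.17; range over all alternatives 1.98e-10 to 0.17), and within batch 2 it was 0.39. Mef2c was at -4.05 within batch 1 and -3.75 within batch 2, and Mef2a at 1.19 and 1.35. Of the transcript shares, 5 of 7 were called, where 35.3% of all transcripts were, or 3 of 7 without cerebellar replicate 1. Mef2c-201 was lower by -5.95 (SE 0.80, adjusted p = 6.64e-05), or by -2.59 on the odds of TPM, from shares of 0, 0.000816 and 0.674% and 0 to 16.1 counts. Mef2a-208 was lower by -0.58 (SE 0.13, adjusted p = 0.00296) and Mef2a-203 higher by 0.69 (SE 0.14, adjusted p = 0.00136), means that rested on layer V neurons, since cerebellar shares lay inside the range of the other neuronal types. Mef2d-203 was higher by 0.38 (SE 0.11, adjusted p = 0.013), or 0.34 without cerebellar replicate 1 (adjusted p = 0.0633; range over all alternatives 0.00592 to 0.284). Mef2d-201, at -0.23 (SE 0.08, adjusted p = 0.0405), kept its call in 7 of 18 fits that each left out a replicate, with values between -0.27 and -0.21. Cerebellar shares of Mef2d-203 overlapped with those of dentate granule cells, and those of Mef2d-201 with dentate granule cells and interneurons. Both differences from the mean thus rested largely on layer V neurons, with mean shares of 18.7% for Mef2d-203 and 63.2% for Mef2d-201.

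Among the genes around MEF2, values in cerebellar granule cells were set beside 34.9% of all genes higher, 43.0% lower and a median of -0.21. Of the calcium and kinase inputs 6 were higher, 5 lower and 2 not past the threshold (median -0.04), with Camk4, a kinase of cerebellar granule cells, at 4.21 (SE 0.07) and Camk2a, at 0.940 ± 0.0821 TPM there, at -10.34 (SE 0.17). Of the coactivators and partners 5 were higher and 2 lower (median 0.97), with Kat2b at 3.37 (SE 0.06), Ep300 at 1.47 (SE 0.06) and Hdac3 at -0.83 (SE 0.04). Of the class IIa histone deacetylases 1 was higher and 2 lower (median -0.11), with Hdac4 at 0.60 (SE 0.06) and Hdac9 at -1.70 (SE 0.08), and Srf was at -0.65 (SE 0.04). Of the targets 4 were higher, 6 lower and 2 not past the threshold (median -0.08), with Jun at 1.12 (SE 0.07) and Bdnf at 1.06 (SE 0.06), against Kcna4 at -5.54 (SE 0.13) and Pcdh10 at -3.87 (SE 0.11). Both Jun (162 TPM) and Bdnf (22.5 TPM) were lower than in dentate granule cells (281 and 43.8 TPM), and the excess of Bdnf over the mean rested on interneurons (0.985 TPM).

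Interneurons had the lowest Mef2d of the 4 neuronal types. Against the other 3, Mef2d was lower by -1.16 (SE 0.04, adjusted p = 7.06e-14), with 3 of 3 libraries below the 9 others. Mef2c was higher by 0.74 (SE 0.06, adjusted p = 3.5e-09), with interneuron libraries below those of layer V and above those of both granule cell types. This mean rested on the low cerebellar level: dentate granule cells minus interneurons gave -0.17 (SE 0.07, adjusted p = 0.053), not past the threshold. Mef2a was lower by -0.58 (SE 0.04, adjusted p = 2.04e-09), between dentate granule cells and layer V neurons. Mef2b had -0.60 (SE 0.44, adjusted p = 0.249), but -1.31 without interneuron replicate 3 (adjusted p = 0.0417; range over all alternatives 0.0417 to 0.628). In this comparison 3 of 4 members were called, against 64.4% of all genes. Within batch 2 the values were -1.19 for Mef2d, 0.66 for Mef2c and -0.61 for Mef2a. By limma, 0 of 7 transcript shares were called in interneurons, where 17.7% of all transcripts were, and 5 of 7 had an unadjusted p under 0.05. Other settings of the same test called 1 on the odds of TPM and 2 when the batch 2 runs replaced the batch 1 runs. Mef2c-201, at 2.43 (SE 0.80, adjusted p = 0.0532), was called in both of these settings, at 1.24 on the odds of TPM. Without cerebellar replicate 3 it was at 2.99 (adjusted p = 3.09e-05; range over all alternatives 7.91e-06 to 0.164). These values are against a mean that includes the near absence of Mef2c-201 in cerebellar granule cells (0.225%), while interneuron shares lay below those of layer V neurons. With the batch 2 runs in place Mef2d-204 was called as well, at 0.25 (adjusted p = 0.0381). The oligodendrocyte markers were higher in the interneuron libraries than in any others, and markers of excitatory neurons were present in them too, as given above. Their part in these values was not tested.

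The patterns of the MEF2 genes over the 18 libraries were compared, as a description, by Pearson's r of log2(TPM + 1), in which the 3 libraries of a cell type sit near each other and are not independent points. Mef2a and Mef2d had r = 0.677, Mef2a and Mef2c r = -0.219, and Mef2c and Mef2d r = 0.00788. Mef2b had r = -0.751 with Mef2a, -0.325 with Mef2c and -0.609 with Mef2d. Among all genes tested, those most like Mef2a were Abcg1 (0.9882), Wdr5 (0.9876), Daxx (0.9871), Sfmbt1 (0.9869) and Poldip3 (0.9864). Abcg1, a cholesterol transporter, was at 68.5 TPM in cerebellar granule cells, 43.7 TPM in microglia and 4.87 TPM in astrocytes. Those most like Mef2c were Zbed5 (0.9637), Rbfa (0.9631), Basp1 (0.9612), Gm17018 (0.9584) and Gm28048 (0.9575). Basp1, a membrane protein of growing axons, was at 1270.4 TPM in layer V neurons and 4.51 TPM in cerebellar granule cells. Those most like Mef2d were Aloxe3 (0.9907), Klf13 (0.9891), Upf2 (0.9873), Iqsec2 (0.9853) and Rab3ip (0.9840), of which Klf13, a zinc finger transcription factor, was at 227 TPM in dentate granule cells and 26.5 TPM in astrocytes. Mef2b, under 1 TPM on average, was not searched for like patterns.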

How the data were processed

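Per the labels and the paper's methods, the authors trimmed reads with cutadapt 3.5, quantified transcripts with kallisto 0.46.2 against GENCODE M24 (GRCm38), and deposited estimated counts (not normalised) and TPM per transcript for each of 22 libraries. Their own test, sleuth, was not run here, and kallisto's strand setting was not stated. The members and lists were chosen with earlier results of these data known.

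A single library per replicate was used, the batch 1 run for replicates that had runs in both batches. Estimated counts were summed per gene and rounded to whole numbers. Gene levels were compared by edgeR 4.0.16 (TMM, filterByExpr, quasi-likelihood test) in 1 fit of 18 libraries, with Benjamini-Hochberg adjustment over the 20524 genes tested and a threshold of 0.05. Transcript shares were compared by limma 3.58.1 on log2 odds (0.5 added to both counts), for 20723 transcripts of genes with at least 10 counts in every library and mean shares of 0.05 to 0.95. R 4.3.3, Python 3.11.15, numpy 2.4.6, pandas 2.3.3 and matplotlib 3.10.9 were used. Exons and sequences came from GENCODE M21 (GRCm38), in which 55 of 55 MEF2 transcripts were found. The fits were tested on simulated data. In contrasts of 3 libraries against 3, a permutation of libraries could not give a p under 0.1. No permutation test was used, in these or in the contrasts with more libraries.

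Genes named were the 4 members, their transcripts with at least 10% of the gene's TPM in a cell type, the 5 genes with the highest r for each member with a mean of at least 1 TPM, and from each list the 3 genes with the highest mean TPM and the 2 with the largest fold in each direction. From these, examples are given, and some of these genes and alternative exons are not reported here. The lists were the MADS-box relative Srf, class IIa histone deacetylases, coactivators and other partners, calcium and kinase inputs, known MEF2 targets in neurons, microglial transcription factors and the marker lists. Short exons are under 30 bases.

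Alternatives were DESeq2 1.42.0, no filter on low counts, replicate number as a block, batch 2 runs as replacements for batch 1 runs, all 22 libraries with a batch term, protein-coding transcripts only, limma on log2(TPM + 1) and log2(TPM + 0.1), log2 odds of TPM, either batch alone, and leaving out each replicate.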

Additional observations from a re-analysis of the deposited data

How the results depend on the processing

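The 28 log2 fold changes of the members were recomputed under each alternative, which gave 758 values: 724 kept their sign and their side of the threshold, 22 changed sign with no call in either fit, 1 lost a call, 9 gained a call and 2 lost a call and changed sign. Of 536 values for neighbours in the order of levels, 521 kept both and 8 changed sign with no call in either fit. Of 1127 for transcript shares, 1060 kept both and 7 changed sign with no call, while 43 lost and 17 gained a call. The fits within batch 1, within batch 2, and within batch 2 for shares were chosen after seeing the data. Those within batch 2 hold a single library each of dentate granule cells, layer V neurons, cerebellar granule cells and astrocytes, so a call lost there says little. With replicate number as a block, though the labels pair no samples (0 of 15 pairs of groups had all 3 same-number correlations above 0.1, while 15 of 18 samples correlated best with their own number), the values that changed side were Mef2b in dentate granule cells, at 0.93 (adjusted p = 0.0469), and the shares of Mef2d-204 in layer V neurons and Mef2d-201 in cerebellar granule cells.

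For Mef2b in dentate granule cells the value was 0.90 (adjusted p = 0.0453) with batch 2 libraries in place and 0.93 (adjusted p = 0.0149) with 22 libraries and a batch term, and 0.77 to 1.11 without 1 replicate (adjusted p from 0.0181 to 0.169). In interneurons it was -1.31 to -0.32 without 1 replicate. Mef2a in dentate granule cells was 0.15 (adjusted p = 0.153) within batch 2 and -0.0029 (adjusted p = 0.956) within batch 1. Mef2d was -0.072 (adjusted p = 0.17) in cerebellar granule cells and -0.46 (adjusted p = 9.82e-07) in layer V neurons within batch 1. The batch 1 fits hold no interneurons, so their neuronal mean is over fewer types. On log2(TPM + 1) and log2(TPM + 0.1), Mef2d in layer V neurons was -0.35 (adjusted p = 2.15e-06) and -0.35 (adjusted p = 2.34e-06), and Mef2a in microglia minus dentate granule cells was 0.013 (adjusted p = 0.827) and 0.013 (adjusted p = 0.829). Within batch 2, with fewer libraries, that difference was 0.21 (adjusted p = 0.0518), Mef2a in interneurons minus layer V neurons 0.22 (adjusted p = 0.06), and Mef2b in astrocytes minus dentate granule cells 1.97 (adjusted p = 0.0513). Mef2c in microglia minus dentate granule cells was -0.20 (adjusted p = 0.0238) with 22 libraries and a batch term, and Mef2d in interneurons minus microglia 0.090 (adjusted p = 0.068) with protein-coding transcripts only. Of 7 transcript shares, within batch 2 the calls numbered 0 in dentate granule cells, 3 in layer V neurons, 1 in cerebellar granule cells and 1 in interneurons. Without 1 replicate they numbered 3 to 5 in cerebellar granule cells and 0 to 1 in interneurons. In interneurons they numbered 1 on the odds of TPM, 1 with protein-coding transcripts only and 2 with batch 2 libraries in place. Beyond the fewer libraries and types named, the cause was not tested. Mef2b gave no value by limma on TPM, where its mean was under 1, and its low counts limit what could be detected outside astrocytes.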
